A study of Mus musculus with 8 samples.

Results

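A set of 10 nuclear receptor genes known to work with corepressors was followed in mouse epicardial cells with and without CRISPR/Cas9 directed at Hdac3. They were Thra, Thrb, Vdr, Nr3c1, Nr1h3, Nr1h2, Nr2f1, Nr2f2, Nr2f6 and Nr4a1, picked by name, and all 10 were found, each in 1 row of the 35275 genes in the deposited tables. Receptors for retinoids, the PPARs and the Rev-erbs were not among them. The study sequenced RNA from 8 libraries of a mouse epicardial cell line, a culture model of the cell layer that covers the heart. The KO group held 4 libraries of cells titled as an Hdac3 Crispr/cas9 knockout, made with a lentivirus carrying an Hdac3 sgRNA. The EV group held 4 libraries of cells transduced with an empty vector lentivirus. All cells grew in high-glucose DMEM with fetal bovine serum. Whether the KO cells were a pool or a clone was not given in the sources used here. Replicates carry a number only, so the spread between libraries may be technical and p-values measure the group difference against that spread.

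Nuclear receptors are transcription factors that bind DNA through a pair of zinc fingers and, in most cases, a small lipophilic ligand through a separate domain. Receptors such as the thyroid hormone and liver X receptors sit on DNA without ligand and hold corepressor complexes such as that of NCoR, which carry the histone deacetylase HDAC3 and keep nearby chromatin deacetylated. Ligand binding moves the last helix of the receptor, so that coactivators with acetyltransferase activity replace the corepressors. COUP transcription factors and the NR4A receptors are called orphans because they act largely without a known hormone.

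The deposited counts summed to between 18063745 and 24564892 per library. Libraries were grouped by title, because 1 library titled KO, replicate 1, carries an empty vector entry among its characteristics, and the fold changes, ratios and counts of calls were recomputed without that library. Hdac3 itself averaged 61.6 ± 3.23 CPM in KO and 61.9 ± 1.53 CPM in EV (SD, n = 4 each; CPM are counts scaled to library size with TMM factors), so its transcript does not check the labels. Markers of epicardium were present, with Wt1 at 263 and 341 CPM and Upk3b at 1465 and 1858 CPM in KO and EV, while the retinaldehyde dehydrogenase Aldh1a2 stood at 0.251 and 0.407 CPM. The related Aldh1a1, also among the markers, averaged 560 CPM in KO and 517 CPM in EV (edgeR adjusted p = 0.0569). Of 16 epicardial and mesothelial markers 15 were tested, 4 rose and 6 fell at an edgeR adjusted p under 0.05. Over all genes tested, 26.0% passed, 12.6% higher and 13.4% lower in KO, a smaller share than among these markers. The summed level of 24 hepatocyte genes was 70.6 to 91.0 CPM in KO and 56.7 to 66.7 CPM in EV, with 22 of the 24 higher on average in KO and the highest sums in KO replicates 2 and 3. Leukocyte markers, of which 9 of 10 were in the table, summed to 9.93 to 11.2 CPM in KO and 6.41 to 7.92 CPM in EV, with Tyrobp at 0 in every library. Cardiomyocyte markers summed to 115 to 133 CPM in KO and 147 to 160 CPM in EV, most of it Tnnt2, with Nppa at 0. Endothelial markers summed to 22.1 to 24.1 CPM in KO and 30.3 to 32.5 CPM in EV, and smooth muscle markers to 1039 to 1229 CPM in KO and 1096 to 1322 CPM in EV. The part of these marker levels in the receptor results was not tested. In such bulk samples, fewer cells of a type and less RNA per cell cannot be told apart.

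The receptors spanned a wide range of level per length. The order given here rests on the gene lengths of the deposited FPKM, and other lengths were not tried. Per length and library total (FPKM, as deposited), Thra led in KO at 35.2 ± 1.13, followed by Nr1h2 at 29.4 ± 1.27 and Nr3c1 at 15.3 ± 0.657 FPKM (SD, n = 4 each). The ranges of these neighbours over the KO libraries did not overlap. Nr2f6 (10.9 ± 0.915), Vdr (10.8 ± 0.496) and Nr2f2 (9.99 ± 0.877 FPKM) overlapped in KO, Nr4a1 followed at 7.32 ± 0.620, and Nr2f1 (1.36 ± 0.336) and Thrb (1.33 ± 0.229 FPKM) could not be ordered. In EV, Nr1h2 at 31.7 ± 2.68 and Thra at 28.2 ± 2.45 FPKM overlapped in range at the top, although Nr1h2 was above Thra within each EV library and below it within each KO library. Nr3c1 (18.8 ± 0.690) and Vdr (17.95 ± 0.968 FPKM) overlapped next, and Nr2f2 (13.1 ± 0.635), Nr2f6 (9.78 ± 2.19), Nr4a1 (5.85 ± 0.306), Thrb (1.67 ± 0.0967) and Nr2f1 (0.993 ± 0.173 FPKM) each stood clear of the next. Nr1h3 was last in both groups, at 0.191 ± 0.0328 FPKM in KO and 0.227 ± 0.0463 FPKM in EV. Of the 12801 genes tested, 57.0% lay below Vdr in KO and 69.99% in EV.

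**Figure D1:**
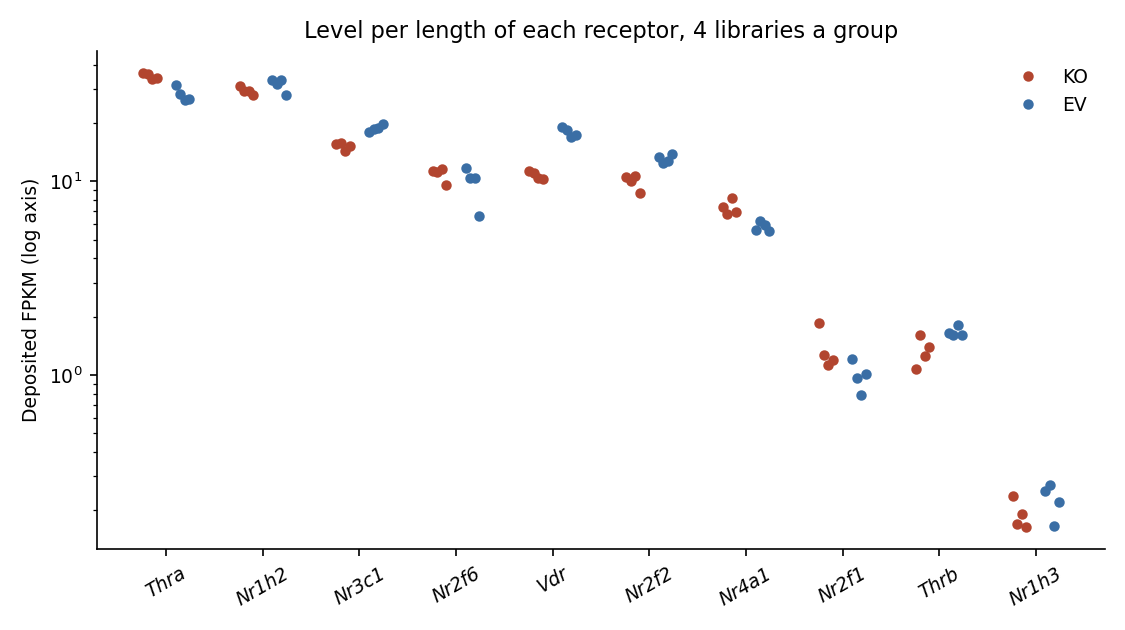
Deposited FPKM of the 10 receptors on a log axis, with KO libraries left and EV libraries right at each gene and 1 point per library. Thra and Nr1h2 stand highest and Nr1h3, at 0.164 to 0.271 FPKM over all libraries, lowest.

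Of the 10 receptors, 9 had enough counts to be tested, and Nr1h3 did not. In edgeR's quasi-likelihood test with Benjamini-Hochberg adjustment over all genes, 2 rose (Thra and Nr4a1), 3 fell (Vdr, Nr3c1 and Nr2f2) and 4 (Thrb, Nr1h2, Nr2f1 and Nr2f6) did not pass an adjusted p of 0.05. Over all 12801 genes tested, 26.0% passed, 12.6% higher and 13.4% lower in KO. Of these, 1613 were higher and 1711 lower, against 1039 higher and 2414 lower when libraries were scaled by their totals alone. The median log2 fold change was −0.06 over the 9 receptors and 0.005 over all genes tested. The groups did not overlap for 5 of the 9, against 26.5% of all genes tested. The 5 that passed were changed by less than 2-fold, and the median absolute log2 fold change of all genes that passed was 0.31. Among the 3324 genes that passed, 17.4% changed more than Vdr and 63.3% more than Nr3c1.

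**Figure D2:**
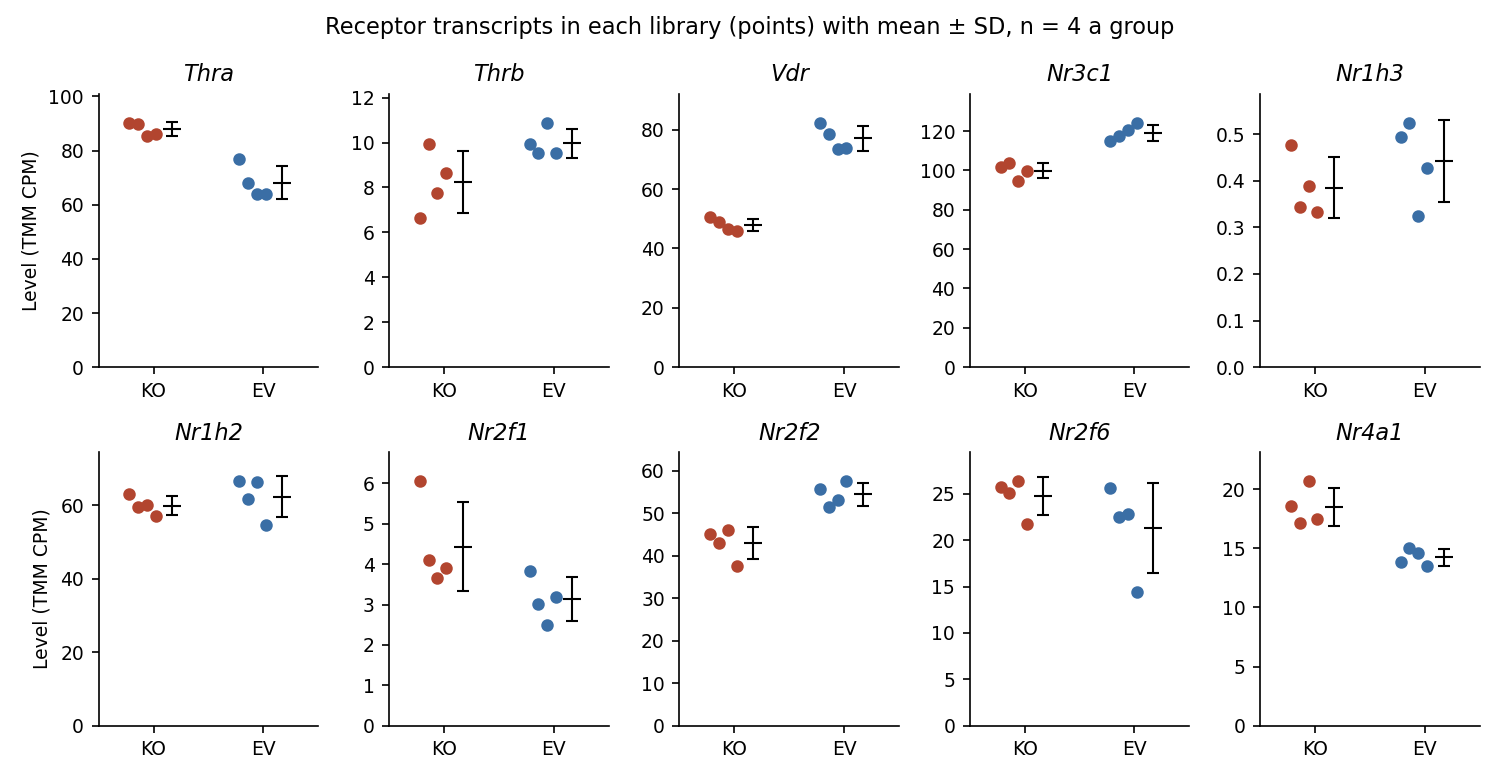
TMM-scaled CPM of each receptor in the 4 KO libraries (left) and the 4 EV libraries (right), with mean ± SD beside the points and every axis starting at 0. The groups are separate for Thra, Vdr, Nr3c1, Nr2f2 and Nr4a1 and overlap for Thrb, Nr1h3, Nr1h2, Nr2f1 and Nr2f6.

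**Figure D3:**
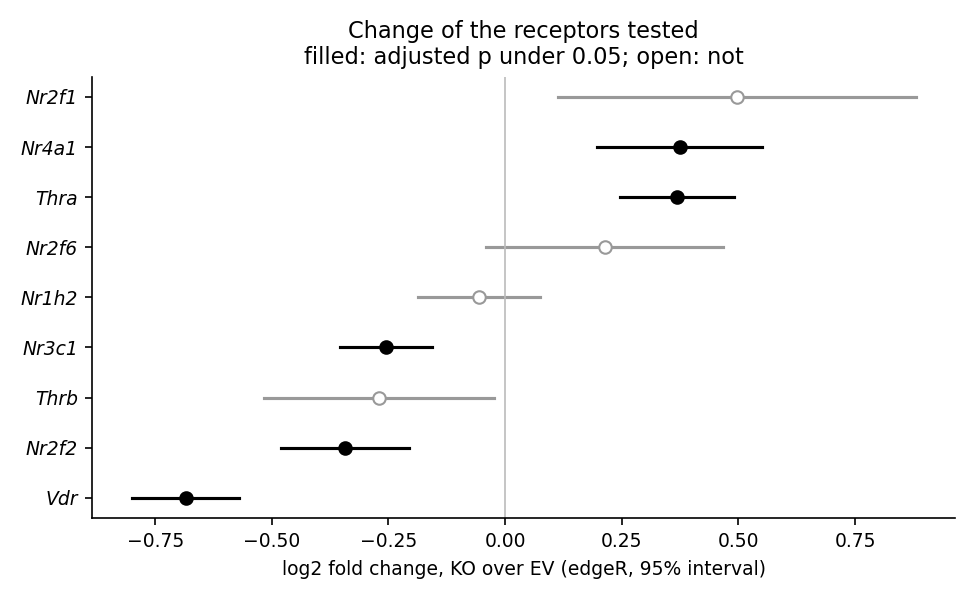
Log2 fold change, KO over EV, of the 9 receptors tested, with 95% intervals from edgeR. Filled points passed an adjusted p of 0.05, from Vdr at −0.68 to Nr4a1 at 0.37, and the widest interval is that of Nr2f1, 0.11 to 0.88.

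The 2 thyroid hormone receptors differed in level and in change. Thra (ENSMUSG00000058756, mm10 chromosome 11, 98740638 to 98769006, plus strand) encodes TR-alpha, the main thyroid hormone receptor of heart, and was measured at 90.2, 89.8, 85.2 and 86.0 CPM in KO replicates 1 to 4, against 76.8, 67.9, 63.8 and 63.9 CPM in EV replicates 1 to 4. All 4 KO libraries lay above all 4 EV libraries. Thra rose 1.29-fold (log2 fold change 0.37, SE 0.0583, 95% interval 0.25 to 0.49, edgeR adjusted p = 9.78e-05). An exact permutation test over the 70 arrangements of the libraries, two-sided, gave p = 0.0286, the smallest it can give. Thrb (ENSMUSG00000021779, chromosome 14, 17660960 to 18038088, plus strand), which encodes TR-beta, stood at 6.63, 9.94, 7.76 and 8.65 CPM in KO, against 9.92, 9.53, 10.9 and 9.54 CPM in EV. Of the KO libraries, 3 lay below every EV library and replicate 2 did not. Its log2 fold change of −0.27 (SE 0.118, 95% interval −0.52 to −0.02) had an edgeR adjusted p of 0.101 and an exact permutation p of 0.114. The edgeR adjusted p was 0.0307 without KO replicate 2. Leaving out KO replicate 1 instead, the lowest library, gave a log2 fold change of −0.18 and an edgeR adjusted p of 0.297.

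The balance of the pair was tested within each library, on values per gene that do not separate transcript forms. The ratio of Thrb over Thra FPKM was 0.0296, 0.0447, 0.0367 and 0.0405 in KO, against 0.0521, 0.0566, 0.0688 and 0.0602 in EV. Every KO ratio lay below every EV ratio, with a difference of −0.66 on the log2 scale (exact permutation test, two-sided, p = 0.0286). That p is the smallest the test can give, and it was also 0.0286 adjusted over the 3 ratios of paralogues tested. Such a ratio does not depend on how libraries are scaled. Thra overlaps Nr1d1, the Rev-erb alpha gene on the opposite strand, over 263 bases, 10.7% of its longest coding transcript. Nr1d1 averaged 8.92 ± 0.745 CPM in KO and 7.45 ± 0.638 CPM in EV, far lower than Thra, with an edgeR adjusted p of 0.0878. Whether counting used strand is unknown here, as no source used states it.

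The coding stretch that begins the DNA recognition helix of the first zinc finger shows how far the coding bases of the paralogues differ where the family is most alike. It was located by a codon pattern in GENCODE transcripts and is printed for the pairs compared by ratio, with capitals at bases that differ from Thra in Thrb and from Nr2f2 in Nr2f1 and Nr2f6.
Thra: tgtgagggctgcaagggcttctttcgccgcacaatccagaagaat
Thrb: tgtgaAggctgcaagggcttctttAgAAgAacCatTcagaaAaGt
Nr2f2: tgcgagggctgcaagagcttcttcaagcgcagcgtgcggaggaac
Nr2f1: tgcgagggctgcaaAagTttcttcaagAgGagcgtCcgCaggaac
Nr2f6: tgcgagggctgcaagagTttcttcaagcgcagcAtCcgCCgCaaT
Of 45 bases, 9 differ between Thrb and Thra, 6 between Nr2f1 and Nr2f2 and 7 between Nr2f6 and Nr2f2. These are differences of bases and not of protein. Read as codons, Nr2f1 and Nr2f2 encode the same residues here. Most differing bases of Thrb and Nr2f6 also leave the encoded residue unchanged. Over whole transcripts, stretches of 50 bases shared with any other gene made up 0.122% of those of Thrb, 4.74% of Thra, 1.30% of Nr2f1, 7.35% of Nr2f2 and 43.4% of Nr2f6. The gene sharing these stretches was Nr1d1 for Thra and Ocel1 for Nr2f6. Both strands were searched, and each of these genes overlaps its receptor on the opposite strand. For Nr2f1 the sharing genes were A830082K12Rik, which overlaps it on the opposite strand, and its paralogue Nr2f2.

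Around the thyroid hormone receptors, 10 of 17 listed genes of hormone transport, deiodination and response were tested, 2 rose and 2 fell, with a median log2 fold change of 0.05. Hr, which encodes Hairless, a thyroid-hormone-inducible corepressor that binds thyroid hormone and vitamin D receptors, was measured at 4.30, 4.16, 3.75 and 4.32 CPM in KO, against 10.4, 9.96, 12.6 and 9.77 CPM in EV. All 4 KO libraries lay far below the lowest EV library, and Hr fell by 1.37 on the log2 scale (SE 0.121). Malic enzyme, Me1, a classical thyroid hormone target in liver, averaged 71.3 ± 2.95 CPM in KO and 92.0 ± 4.55 CPM in EV and fell by 0.37 on the log2 scale. Dio2, the deiodinase that makes active hormone, stood at 4.14, 5.88, 4.01 and 3.28 CPM in KO, against 1.48, 1.40, 3.01 and 2.85 CPM in EV, and rose (0.97, SE 0.239). Bcl3, a nuclear member of the I-kappa-B family, rose too (0.77, SE 0.0878). Klf9, another response gene, stood at 92.0 CPM in KO and 91.8 CPM in EV and did not pass, and the transporters Slc16a10 and Slc7a5 did not pass. Without KO replicates 2 and 3, chosen after the data were examined for their hepatocyte gene levels, 1 gene of this list rose. Bcl3, Me1 and Dio2 overlap genes on the opposite strand.

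Vdr, the receptor for the hormonal form of vitamin D, had the largest fold change of the 9 receptors tested. Vdr (ENSMUSG00000022479, chromosome 15, 97854425 to 97910630, minus strand) was measured at 50.6, 48.8, 46.7 and 45.9 CPM in KO, against 82.4, 78.7, 73.6 and 74.0 CPM in EV. The highest KO library was well below the lowest EV library, and no annotated exon of another gene overlapped those of Vdr. It fell, 1.61-fold lower in KO (log2 fold change −0.68, SE 0.0552, 95% interval −0.80 to −0.57, edgeR adjusted p = 2.32e-08, exact permutation p = 0.0286). The fall kept its call in all 20 alternative fits, with log2 fold changes from −0.74 to −0.66.

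The 250 bases before the Vdr start in RefSeq (GRCm38.p6, chr15:97908297-97908546, minus strand) are shown because Vdr had the largest fold change of those tested. This start lies inside the interval the deposited table gives for the gene. Capitals mark GGGCGG on either strand, the GC box bound by Sp factors.
Vdr: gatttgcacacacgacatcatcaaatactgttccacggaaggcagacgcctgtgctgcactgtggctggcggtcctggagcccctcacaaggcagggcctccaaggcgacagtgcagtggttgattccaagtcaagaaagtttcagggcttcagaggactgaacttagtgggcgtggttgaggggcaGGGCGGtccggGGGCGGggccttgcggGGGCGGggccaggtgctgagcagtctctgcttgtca
GGGCGG stood 3 times in this window, and 8.47% of 32851 windows of this length held it 3 times or more. AGGTCA, the core motif of many nuclear receptors, and TGACG, the core of the cAMP response element, were not in it on either strand; 14.0% and 17.8% of all windows held them. Windows before a RefSeq start were used for 8 of the 10 receptors. Whether RefSeq holds an entry for the others is not reported here.

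Of 14 genes of vitamin D metabolism and response, 8 were tested, 2 rose and 3 fell, with a median of −0.22. The shares over all genes tested were 12.6% higher and 13.4% lower. Cyp24a1, the hydroxylase that inactivates vitamin D and the most strongly induced target of the receptor, averaged 0.0104 CPM in KO and was at 0 in all EV libraries, under the level of 3 counts in each (0.125 to 0.164 CPM). Lrp2, which encodes megalin, the receptor that takes up vitamin D with its carrier, stood at 16.5, 18.02, 16.7 and 21.7 CPM in KO, against 30.6, 28.5, 33.6 and 36.5 CPM in EV, and fell by 0.82 on the log2 scale (SE 0.0927). Spp1, which encodes osteopontin and is induced by vitamin D in bone cells, stood at 28.1, 21.4, 22.2 and 24.0 CPM in KO, against 14.7, 15.7, 16.1 and 11.7 CPM in EV, and rose (0.71, SE 0.102). The sodium-calcium exchanger Slc8a1 (−0.31) and the endotoxin coreceptor Cd14 (−0.28) fell. Gc, the vitamin D binding protein secreted by liver, rose to 1.06 ± 0.532 CPM in KO, against 0.407 ± 0.118 CPM in EV, and is one of the hepatocyte genes above, with 1.62 and 1.42 CPM in KO replicates 2 and 3 against 0.637 and 0.582 CPM in KO replicates 1 and 4. Without KO replicate 2 or 3, 1 gene of the list rose. Slc8a1 overlaps a gene on the opposite strand.

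Nr3c1, the glucocorticoid receptor, fell by less than Vdr. Nr3c1 (ENSMUSG00000024431, chromosome 18, 39410545 to 39491301, minus strand) was measured at 102, 104, 94.4 and 99.8 CPM in KO, against 115, 117, 121 and 124 CPM in EV. The groups did not overlap, and the fall was 1.19-fold (log2 fold change −0.25, SE 0.0471, 95% interval −0.35 to −0.16, edgeR adjusted p = 0.000463, exact permutation p = 0.0286). In cytoplasm this receptor is held ready for hormone by HSP90 and its cochaperones. Of 12 tested genes of these chaperones and of glucocorticoid metabolism, 0 rose in edgeR, DESeq2 or limma-voom, also 0 at an unadjusted p under 0.05, and 2 fell. With 12.6% of all genes tested higher and 13.4% lower, 0 rises among 12 genes say little. Hsp90ab1 stood at 3975 CPM in KO and 3962 CPM in EV, and the heat shock protein Hspa4 fell by 0.12 on the log2 scale. Hsd11b2, which inactivates glucocorticoids, averaged 0.566 ± 0.190 CPM in KO and 1.71 ± 0.242 CPM in EV, and fell (−1.56, SE 0.282). Without any one KO library, or without EV replicate 3, 1 gene of this list fell, and 4 fell with library totals alone.

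Of 18 glucocorticoid response genes, 14 were tested, 5 rose and 3 fell, with a median of 0.18. For all genes tested, the shares were 12.6% higher and 13.4% lower. The metallothionein Mt2 stood at 1132, 1091, 1006 and 875 CPM in KO, against 654, 641, 600 and 627 CPM in EV, and rose (0.70, SE 0.0623). The kinase Sgk1 (0.43), the transcription factor Cebpd (0.51), glutamine synthetase, Glul (0.34), and Mt1 (0.34) rose, and Glul overlaps a gene on the opposite strand. Fkbp5 and Tsc22d3, widely used as readouts of the receptor, did not pass: Fkbp5 averaged 39.6 CPM in KO and 40.8 CPM in EV, and Tsc22d3 12.3 CPM in KO and 13.1 CPM in EV. Per1 (−0.23), transglutaminase Tgm2 (−0.24) and the ErbB inhibitor Errfi1 (−0.22) fell, and without KO replicate 4, or without KO replicates 2 and 3, 1 of the list fell. The members of this list thus moved in both directions.

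The liver X receptors, sensors of oxysterols that switch on cholesterol export, were not called. Nr1h2 (ENSMUSG00000060601, chromosome 7, 44549616 to 44553951, minus strand), which encodes the widely expressed LXR-beta, stood at 63.1, 59.5, 60.1 and 57.0 CPM in KO, against 66.5, 61.7, 66.2 and 54.6 CPM in EV. The groups overlapped, at −0.06 on the log2 scale (SE 0.0625, edgeR adjusted p = 0.554, exact permutation p = 0.514). The 95% interval of −0.19 to 0.08 leaves room for a change in either direction within it. Nr1h3 (ENSMUSG00000002108, chromosome 2, 91184061 to 91202834, minus strand), which encodes LXR-alpha, had 9, 7, 9 and 8 counts in KO, against 9, 12, 7 and 9 counts in EV. These were above 3 counts in every library but too few for the filter, and with no filter the log2 fold change was −0.21 (SE 0.522, edgeR adjusted p = 0.831). An exact permutation test gave p = 0.343, so no difference was detected at this depth.

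Of 18 LXR response genes, 11 were tested, 2 rose and 1 fell, with a median of 0.05, where 12.6% of all genes tested were higher and 13.4% lower. Abca1, the pump that loads cholesterol onto apolipoprotein A-I, stood at 269, 282, 275 and 272 CPM in KO, against 157, 172, 179 and 184 CPM in EV, and rose (0.67, SE 0.0486). All KO libraries lay far above all EV libraries. The phospholipid transfer protein Pltp averaged 81.0 ± 3.04 CPM in KO and 52.2 ± 2.55 CPM in EV and rose (0.63, SE 0.0528), and it overlaps Ctsa on the opposite strand. Lipoprotein lipase, Lpl, averaged 461 ± 14.4 CPM in KO and 573 ± 34.6 CPM in EV and fell by 0.31 on the log2 scale. Mylip, the ligase that degrades the LDL receptor, stood at 1.82 CPM in KO and 1.08 CPM in EV with an edgeR adjusted p of 0.0533. The lipogenic members Srebf1 (−0.13), Fasn (0.05) and Scd1 (0.08 on the log2 scale) did not pass, and Abcg1, the other cholesterol exporter of the pathway, averaged 0.0137 CPM in EV and was at 0 in all KO libraries, under 3 counts throughout. Without EV replicate 4, and with library totals alone, 2 of the list fell.

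Of the COUP transcription factors, orphan receptors that mostly repress and that shape atria and vessels in the embryo, Nr2f2 fell, and Nr2f1 and Nr2f6 did not pass. Nr2f2 (ENSMUSG00000030551, chromosome 7, 70351946 to 70366735, minus strand), which encodes COUP-TFII, stood at 45.2, 42.9, 46.0 and 37.7 CPM in KO, against 55.7, 51.3, 53.2 and 57.5 CPM in EV. The groups did not overlap, and Nr2f2 fell, 1.27-fold lower in KO (log2 fold change −0.34, SE 0.0653, 95% interval −0.48 to −0.21, edgeR adjusted p = 0.000622, exact permutation p = 0.0286). Its antisense neighbour RP24-240G4.2 held 1 to 8 counts in KO and 5 to 10 in EV and does not overlap the longest coding transcript. Nr2f1 (ENSMUSG00000069171, chromosome 13, 78188973 to 78199757, minus strand), which encodes COUP-TFI, stood at 6.05, 4.11, 3.66 and 3.91 CPM in KO, against 3.84, 3.02, 2.50 and 3.18 CPM in EV. KO replicate 1 was the highest, and 3 of the 4 KO libraries lay above every EV library. The log2 fold change of 0.50 (SE 0.183, 95% interval 0.11 to 0.88) had an edgeR adjusted p of 0.0521 and an exact permutation p of 0.0571. It was 0.32 without KO replicate 1 (adjusted p = 0.217), and it passed without KO replicate 3 (0.58, adjusted p = 0.0407) or EV replicate 1 (0.60, adjusted p = 0.0285).

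Nr2f6 (ENSMUSG00000002393, chromosome 8, 71374123 to 71381960, minus strand), which encodes EAR2, stood at 25.7, 25.1, 26.3 and 21.7 CPM in KO, against 25.6, 22.5, 22.8 and 14.4 CPM in EV. EV replicate 4 was low, and the groups overlapped. The log2 fold change of 0.21 (SE 0.122, 95% interval −0.04 to 0.47) had an edgeR adjusted p of 0.217 and an exact permutation p of 0.314, and it was 0.06 without EV replicate 4. Nr2f6 overlaps Ocel1 on the opposite strand over 914 bases, 41.2% of its longest coding transcript. Ocel1 held 114, 131, 168 and 161 counts in KO, against 95, 135, 86 and 88 counts in EV, and was higher in KO (0.46, SE 0.139, edgeR adjusted p = 0.0208). Without a stated strand setting, the reads of the overlap cannot be told apart. With the replicate number as a block, both Nr2f1 (adjusted p = 0.0215) and Nr2f6 (adjusted p = 0.0338) passed, and 4 receptors rose in place of 2.

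The relative amounts of the COUP factors differed between the groups. The ratio of Nr2f1 over Nr2f2 FPKM was 0.176, 0.126, 0.105 and 0.137 in KO, against 0.0906, 0.0773, 0.0618 and 0.0728 in EV, without overlap. On the log2 scale the difference was 0.83 (exact permutation test, two-sided, p = 0.0286, and 0.0286 adjusted over the 3 ratios). All 3 ratios gave this p, the smallest the test can give, so the adjustment could not change it. This ratio and the next are both taken over Nr2f2, which fell, so neither is separate evidence of a change in Nr2f1 or Nr2f6. The ratio of Nr2f6 over Nr2f2 was 1.08, 1.11, 1.09 and 1.098 in KO, against 0.876, 0.835, 0.816 and 0.476 in EV. In deposited FPKM, Nr2f6 was thus above Nr2f2 in every KO library and below it in every EV library. Which gene stands higher rests on the gene lengths used, 2218 bases for Nr2f6 and 4220 bases for Nr2f2. Annotated exons cover 2983 and 8625 bases, and other lengths were not tried. The group difference in the ratio does not depend on these lengths. Reads of the Ocel1 overlap may count toward Nr2f6, and their share is unknown. The difference of 0.59 on the log2 scale (exact permutation p = 0.0286, and 0.0286 adjusted) was 0.38 without EV replicate 4. The fourth planned ratio, of Nr1h3 over Nr1h2, was not computed because Nr1h3 did not pass the filter.

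**Figure D4:**
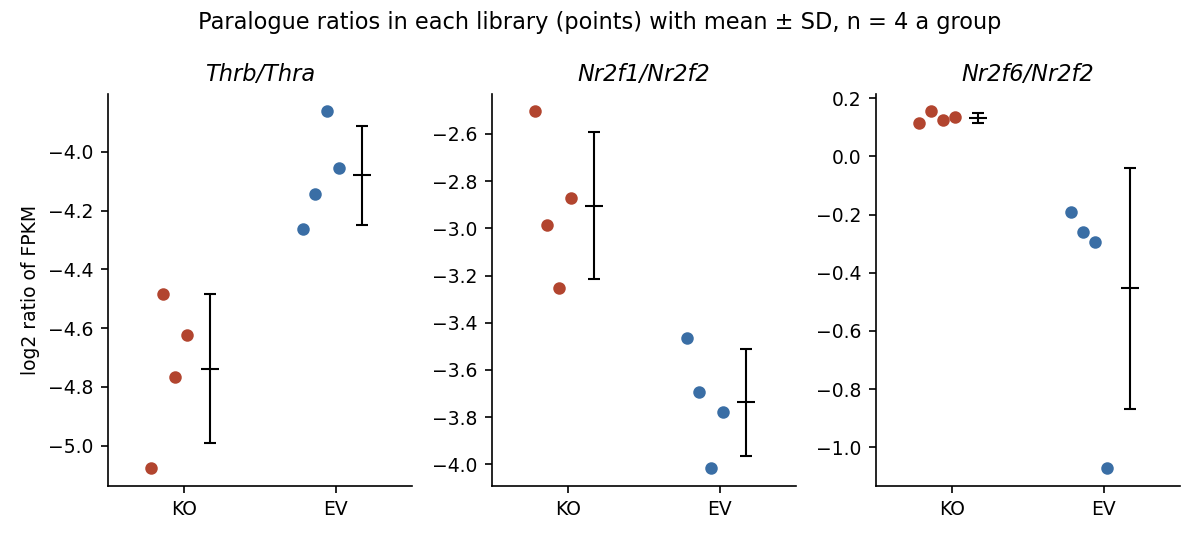
Log2 ratio of deposited FPKM within each library for Thrb over Thra, Nr2f1 over Nr2f2 and Nr2f6 over Nr2f2, with KO left, EV right and mean ± SD beside the 4 points. No ratio overlaps between the groups, and EV replicate 4 lies apart in the third panel at −1.07.

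Nr4a1, an orphan receptor also known as Nur77, is induced within minutes by growth factors and stress as an immediate early gene. Nr4a1 (ENSMUSG00000023034, chromosome 15, 101266846 to 101274792, plus strand) stood at 18.6, 17.1, 20.7 and 17.5 CPM in KO, against 13.8, 14.99, 14.6 and 13.5 CPM in EV. The groups did not overlap, and Nr4a1 rose 1.30-fold (log2 fold change 0.37, SE 0.0847, 95% interval 0.20 to 0.55, edgeR adjusted p = 0.00276, exact permutation p = 0.0286). No other gene in the deposited tables overlapped the interval given there for Nr4a1. Its GENCODE transcripts shared no stretch of 50 bases with another gene. Its relatives were far lower: Nr4a2 averaged 1.87 ± 0.113 CPM in KO and 1.29 ± 0.125 CPM in EV, without overlap, but had an edgeR adjusted p of 0.0723, and Nr4a3 averaged 0.786 ± 0.151 CPM in KO and 0.879 ± 0.153 CPM in EV (adjusted p = 0.743).

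The 250 bases before the Nr4a1 start (RefSeq, GRCm38.p6, chr15:101266596-101266845, plus strand) are printed because immediate early induction of this gene is known to run through its proximal promoter. Capitals mark TGACG on either strand (CGTCA as printed), the core of the cAMP response element, and GGGCGG on either strand.
Nr4a1: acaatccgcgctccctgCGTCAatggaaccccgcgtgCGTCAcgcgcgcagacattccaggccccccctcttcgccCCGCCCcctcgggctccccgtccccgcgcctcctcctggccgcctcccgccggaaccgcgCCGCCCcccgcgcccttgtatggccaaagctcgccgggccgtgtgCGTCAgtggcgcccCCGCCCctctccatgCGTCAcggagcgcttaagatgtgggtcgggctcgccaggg
TGACG stood 4 times in this window, and 0.137% of the 32851 windows of this length held it 4 times or more. GGGCGG stood 3 times. The window held 34 CpG dinucleotides, against a median of 6 over all windows; the windows of the other receptors held 1 (Nr2f2) to 42 (Nr2f6). A match is a description of the letters and not a binding site.

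All 19 immediate early genes listed beside Nr4a1 were tested, 9 rose and 0 fell, where 12.6% of all genes tested were higher and 13.4% lower, with a median log2 fold change of 0.43 against 0.005 over all genes. The count of 0 falls was the same in DESeq2 and limma-voom, 1 gene was lower at an unadjusted p under 0.05 in edgeR, 1 fell with library totals alone and in FPKM with a filter at either pseudocount, and 2 fell without EV replicate 4. Egr1, a zinc finger factor, stood at 131, 112, 129 and 112 CPM in KO, against 67.2, 72.0, 72.6 and 73.4 CPM in EV, and rose (0.76, SE 0.0582). Klf4 stood at 12.6, 13.9, 14.9 and 16.6 CPM in KO, against 7.12, 7.08, 6.34 and 4.93 CPM in EV, and rose (1.19, SE 0.121). Klf2 (0.76), Junb (0.51), Fos (0.58), Egr2 (0.45), Egr3 (0.54), Ier2 (0.43) and Zfp36 (0.30) rose too. Jun (−0.11), Btg2 (−0.10) and Maff (−0.18) had negative log2 fold changes and did not pass. The summed level of the 19 genes was 520 to 576 CPM in KO and 420 to 469 CPM in EV.

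**Figure D5:**
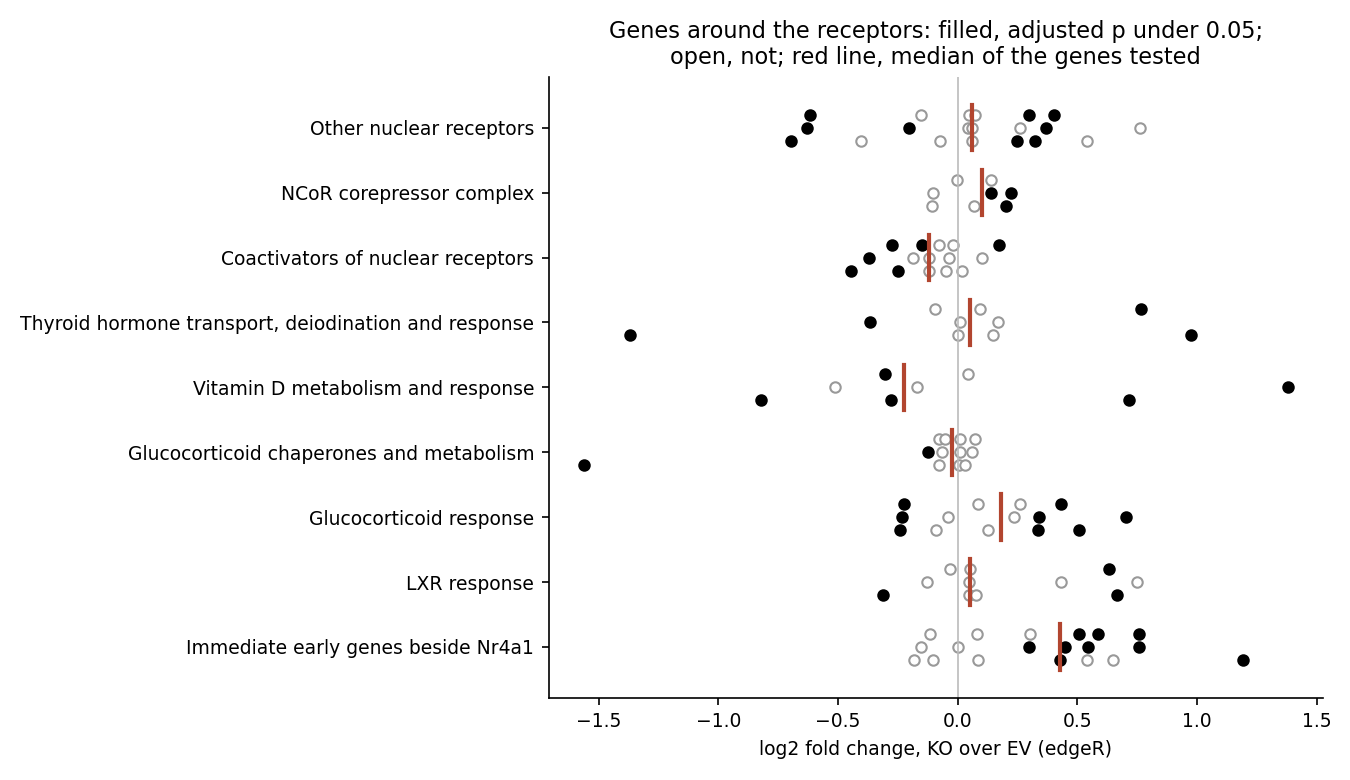
Log2 fold change, KO over EV, of the tested genes of 9 lists around the receptors, with filled points for an adjusted p under 0.05 and a red line at the median of the genes tested. The immediate early genes have the highest median, 0.43, and the vitamin D genes the lowest, −0.22.

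The coregulators that the receptors share were measured with them. All 8 genes of the NCoR corepressor complex and its partners were tested, 3 rose and 0 fell (0 also at an unadjusted p under 0.05, in DESeq2 and in limma-voom). Over all genes tested, 12.6% were higher and 13.4% lower in KO, so 0 falls among 8 genes say little. Tbl1x, the exchange factor of the complex, averaged 345 ± 11.6 CPM in KO and 296 ± 17.1 CPM in EV (0.22, SE 0.0473), and its relative Tbl1xr1 (0.20) rose too. Ncor1 averaged 218 CPM in KO and 235 CPM in EV and did not pass. With library totals alone, in FPKM, or leaving out any of KO replicates 1 and 2 and EV replicates 2 and 3, 1 of the 8 rose. Of 15 coactivators tested, 1 rose and 5 fell, with a median of −0.12. Ppargc1a, which encodes the energy-linked coactivator PGC-1-alpha, averaged 9.13 ± 0.758 CPM in KO and 12.4 ± 1.57 CPM in EV and fell by 0.45 on the log2 scale. Its relative Ppargc1b (−0.37) and the steroid receptor coactivator Ncoa1 (−0.25) fell, and Ncoa3 rose (0.17), a call lost with library totals alone, in FPKM, with no filter, and leaving out KO replicate 3, KO replicate 4 or EV replicate 1. The falls numbered 1 when KO replicate 3 or 4 was left out, 2 for EV replicate 2 or 3, 3 for KO replicate 1 or EV replicate 4, and 8 with library totals alone.

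Of 39 other nuclear receptors, 33 had a count in some library, 20 were tested, 5 rose and 4 fell, with a median of 0.06. By comparison, 12.6% of all genes tested were higher and 13.4% lower. The heterodimer partner Rxra averaged 89.0 ± 3.29 CPM in KO and 84.7 ± 3.75 CPM in EV and did not pass (edgeR adjusted p = 0.319), while Rxrb rose, at 54.5 ± 3.15 CPM in KO and 45.9 ± 4.07 CPM in EV (0.25, SE 0.0665). Rxrg, the third partner, averaged 0.0226 CPM in KO and was at 0 in all EV libraries. The retinoic acid receptors Rarg (0.32) and Rara (0.37) and the orphan receptor Rora (0.30) rose. The bile acid receptor Nr1h4, also called FXR, stood at 4.19, 4.26, 4.22 and 4.57 CPM in KO, against 6.47, 6.99, 5.92 and 7.31 CPM in EV, and fell by 0.63 on the log2 scale (SE 0.124). Esr1, the oestrogen receptor (−0.70), and the orphan receptor Nr2c2 (−0.21) fell. Without KO replicate 1 or 3, 2 of the list fell, 2 rose in FPKM with a filter or without KO replicates 2 and 3, and 3 rose in FPKM with no filter. Rora and Ncoa3 overlap genes on the opposite strand.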

How the data were processed

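The authors deposited raw counts per gene and FPKM for 8 libraries. FPKM equalled the count per gene length and library total in 100% of nonzero values, within 1e-06. Per the submitters' processing notes the build was mm10 and DESeq 1.6.3 was used, while the design text names DESeq2. Aligner, counter, annotation and use of strand were not given in the sources used here.

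Counts were tested with edgeR 4.0.16 (R 4.3.3; TMM, filterByExpr with a minimum count of 10 and a total of 15, quasi-likelihood F test, two-sided, Benjamini-Hochberg), which kept 12801 of 35275 genes. The standard error is the log2 fold change over the square root of F. The steps were tested on simulated data. No 2 libraries of a group were alike within sampling error (chi-square over its degrees of freedom was 4.01 or more, genes with 20 counts or more). Exact permutation tests used SciPy 1.17.1. Library totals of 18063745 to 24564892 put 3 counts at 0.125 to 0.164 CPM. Alternatives used DESeq2 1.42.0, limma 3.58.1 (voom, and log2(FPKM + 1) or log2(FPKM + 0.1), with and without a filter at 0.5 FPKM in 4 libraries), other scaling and filters, the replicate block and each library left out. Overlaps and coding stretches came from GENCODE M21 on the same build, and promoter windows from RefSeq. Receptors, lists and motifs were chosen with earlier results of these data known. Named were all 10 receptors, overlapping genes, receptor partners, Hdac3 and up to 4 genes per list with the smallest adjusted p; other list members are named after their values were seen, and some are not reported here.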

Additional observations from a re-analysis of the deposited data

Results flagged for a closer look

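In EV, the log2 ratio of Nr2f6 over Nr2f2 was −0.19, −0.26 and −0.29 in replicates 1 to 3 and −1.07 in replicate 4. The gap of replicate 4 to the nearest other library was 0.885 of the whole range, above Dixon's 95% critical value for 4 samples. It was 1 of 26 groups of 4 examined, and chance alone flags about 1 in 20. Nr2f6 counted 303 in EV replicate 4, against 468 to 515 in the other EV libraries, while Nr2f2 counted 1211 there and 1017 to 1174 in the others.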

How the results depend on the processing

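The 5 calls (Thra and Nr4a1 higher, Vdr, Nr3c1 and Nr2f2 lower in KO) held in all 20 alternative fits, and none of the 9 receptors tested changed sign. Receptors higher in KO numbered 2 or 3 when 1 library was left out and 4 with the replicate block, where 3 were lower; receptors lower numbered 3, or 4 without KO replicate 2. Nr2f1 also passed with no filter (log2 fold change 0.49, adjusted p = 0.0224). Same-numbered libraries showed correlations of their deviations from −0.04 to 0.14, which does not establish pairs, and 3 of 4 KO libraries correlated best with their own number. The block raised the calls over all genes to 3737, against 3324. Over all genes, 1239 to 1584 were higher and 1382 to 1775 lower with 1 library left out. Higher genes numbered 1039 with library totals alone, 896 and 897 in FPKM with pseudocounts of 1 and 0.1, and 766 in FPKM with no filter. Without KO replicates 2 and 3, 880 were higher and 1094 lower, with fewer samples. Library totals alone moved the median of all genes to −0.05. With TMM scaling of FPKM, 13 neighbouring pairs in the order of levels did not overlap, the number found without it. The TMM factors were close within each group, 0.980 to 0.987 in KO and 1.01 to 1.03 in EV. This check could therefore hardly change the order, and other gene lengths were not tried. Over the 20 fits, immediate early genes higher ranged from 6 to 9, other receptors higher from 2 to 5 and lower from 2 to 4, coactivators lower from 1 to 8, corepressor genes higher from 1 to 4, glucocorticoid response genes lower from 1 to 3, chaperone genes lower from 1 to 4, thyroid genes higher from 1 to 3, vitamin D genes higher from 1 to 2 and LXR genes lower from 1 to 2. The cause of these changes was not tested. Nr1h3, Rxrg, Cyp24a1 and Abcg1 held few counts, which leaves little to compare between the groups. Whether their transcripts were absent or too rare for this depth was not tested.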
